A study of Danio rerio with 20 samples.

Results

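The 10 genes described here encode the transcription factor NF-κB and its main inhibitors, measured by RNA sequencing in olig2 reporter cells of the adult zebrafish spinal cord. They are the I-κB genes nfkbiaa, nfkbiab, nfkbib and NFKBIE, the deubiquitinase gene TNFAIP3, and the subunit genes nfkb1, nfkb2, RELA, relb and REL. They were chosen by symbol, as 10 of the 32266 genes in the table of read counts, and each symbol matched exactly 1 gene. Symbols are written as the annotation table gives them, partly in capitals. The choice was made with the lesion against sham difference of nfkbiaa known, so the lesion and sham values of these genes are given as a description, with no test.

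Lesioned fish had their spinal cord transected and were sampled 7 days post lesion (10 libraries), and sham-operated fish had the same procedure with the cord left intact (10 libraries). All fish were adults of the line Tg(olig2:eGFP), so both groups carry a green fluorescent protein driven by olig2 regulatory sequence, and no other allele is named in the labels. All fish were anaesthetised with tricaine and all cells stained with calcein for viability. Per the labels' protocols, 9 cords were used per group, as pieces of about 0.5 mm next to the lesion or at the matching place. The pieces of a group were put together in 1 tube before dissociation and sorting of living reporter-positive cells, which the labels call oligodendrocyte progenitor cells. With 9 cords per group, the 10 libraries of a group cannot each be a separate fish. Nothing in the labels ties a library to a fish, so the 10 libraries may share 1 cell suspension. The p-values given here then reflect the spread among such libraries, which may be technical, and not the spread between fish.

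NF-κB factors are dimers of Rel family proteins. In resting cells I-κB proteins hold these dimers in the cytoplasm. Signals from tumor necrosis factor, interleukin 1 and Toll-like receptors activate the I-κB kinase complex, which marks I-κB for degradation and frees the dimers, mostly of RELA with the product of nfkb1, or containing REL. A slower branch runs through the kinase NIK and the processing of the nfkb2 product, which pairs with RELB. In mammals NFKBIA, NFKBIE, TNFAIP3, NFKB2, RELB and REL are themselves targets of NF-κB, so that the pathway makes its own inhibitors. Zebrafish have a pair of genes, nfkbiaa and nfkbiab, related to the single mammalian NFKBIA.

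Library totals ran from 7371761 to 9196227 counts after lesion and from 7134670 to 10264810 counts in sham. A count of at least 1 was found for 13562 to 16518 genes in the lesion libraries and for 10328 to 13117 genes in the sham libraries, and the 2 ranges did not overlap. The sort is reflected in OLIG2, the lineage transcription factor gene, at 7490 ± 1352 CPM after lesion and 8302 ± 1163 CPM in sham (mean ± SD, n = 10 each, log2 fold change -0.15, edgeR adjusted p = 0.63). CPM are counts scaled to a common library total, with library sizes corrected by the trimmed mean of M values. Lesion replicates 2, 9 and 10 resembled each other, with Spearman correlations over genes of 0.869 to 0.933 among their 3 pairs. Over the 42 other pairs of lesion libraries the correlations were 0.740 to 0.811. Levels of some of the 10 genes and the calls of pathway genes are also given without these 3 libraries. Each title holds a letter, A or B, and a number, which the labels do not explain and which are read here as plate row and column. By these, the 3 libraries are neighbours, in columns 10 to 12 of row A. All lesion libraries lie in columns 7 to 12 and all sham libraries in columns 1 to 6, so that plate column and group cannot be told apart.

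Of the 10 genes, only nfkbiaa had groups that did not overlap, and its difference was known when the genes were chosen. No overlap with lesion above sham held for 1.45% of the 10467 genes tested. The gene nfkbiaa was found in every lesion library and in no sham library, at 19.5 ± 18.5 CPM after lesion against 0 CPM in sham. Its paralog nfkbiab had the highest level per length of the 10 genes in both groups and was counted at 557 ± 230 CPM after lesion and 660 ± 104 CPM in sham. The subunit gene REL was found in 7 of 10 lesion libraries with at least 3 counts and had a single count in the sham group. The groups overlapped for all of the 10 genes except nfkbiaa.

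The plot of NF-κB gene levels shows every library for the 10 genes.

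**Figure D1:**
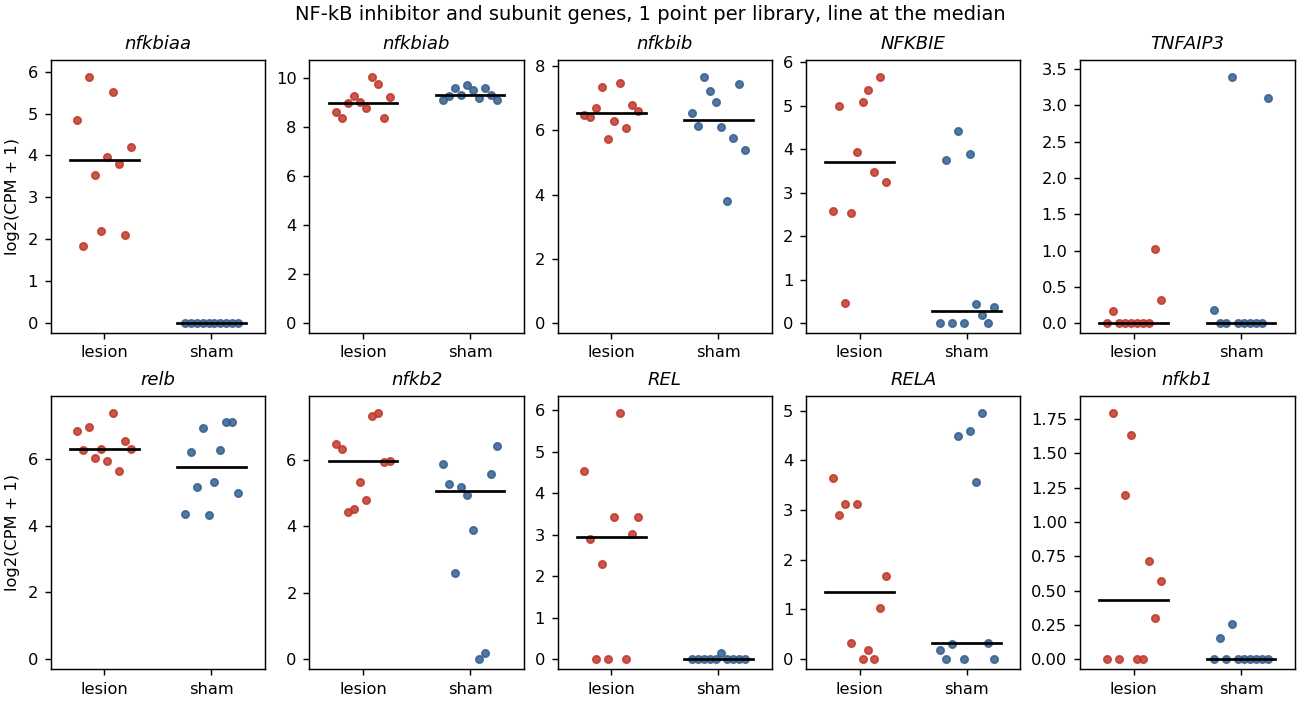
Levels of the 5 inhibitor genes (upper row) and the 5 subunit genes (lower row), as log2(CPM + 1) on the vertical axis, with 10 lesion libraries at left and 10 sham libraries at right of each panel. Each point is a library and each line a median; vertical ranges differ between panels. All 10 sham points of nfkbiaa lie at 0, and the sham points of REL lie at 0 except for 1 library with 1 count.

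Among the inhibitors, nfkbiaa (ENSDARG00000005481, chromosome 20, 16982300 to 16985154, plus strand, GRCz10) encodes an I-κB alpha protein. Its level in the lesion libraries ran from 2.58 through a median of 13.8 to 57.3 CPM, and it had 0 counts in each of the 10 sham libraries. The 1563 lesion counts therefore stand against 0 sham counts. Taking 3 counts in a sham library as the limit of detection, which is 0.365 CPM on average, the lesion mean was at least 53.4-fold higher. That bound ran from 41.9-fold, without lesion replicate 3, to 58.6-fold, without lesion replicate 2. The highest lesion libraries were replicate 3 (57.3 CPM), replicate 7 (44.7 CPM) and replicate 1 (27.9 CPM), and the lowest was replicate 2 (2.58 CPM). The lesion level differed with the row letter. The 4 lesion libraries of row B averaged 31.8 ± 22.8 CPM and the 6 of row A 11.3 ± 10.2 CPM, with 0 counts in the sham libraries of both rows, which gives bounds of 84.7-fold and 31.5-fold. Without lesion replicates 2, 9 and 10 the bound was 67.2-fold.

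Exons of nfkbiaa share 195 of their 1553 bases with PSMA6, a proteasome subunit gene on the opposite strand, and 235 bases with the uncharacterised gene si:ch73-77m20.2. Reads were counted without regard to strand, so reads in shared stretches cannot be assigned to a strand. PSMA6 was present in every library, from 41.4 to 108 CPM after lesion and from 15.8 to 67.1 CPM in sham, while nfkbiaa had no count in any sham library. The gene si:ch73-77m20.2 had 0 counts in all 20 libraries.

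The paralog nfkbiab (ENSDARG00000007693, chromosome 17, 12788568 to 12792670, plus strand) also encodes an I-κB alpha protein. It ran from 323 through a median of 503 to 1032 CPM after lesion, and from 536 through a median of 626 to 841 CPM in sham. The groups overlapped, with both the lowest and the highest library in the lesion group. Replicates 7 and 8 were the highest lesion libraries, and replicates 9 and 2 the lowest. The lesion mean was 557 CPM with all libraries and 618 CPM without lesion replicates 2, 9 and 10. The log2 fold change of lesion over sham was -0.24 ± 0.18 (SE). Its sign depended on the row letter: nfkbiab averaged 501 ± 206 CPM after lesion and 723 ± 84.7 CPM in sham in row A, and 642 ± 269 CPM after lesion and 566 ± 35.3 CPM in sham in row B. The lesion libraries of nfkbiab varied more than the sham libraries, with a coefficient of variation of 0.413 after lesion and 0.158 in sham.

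The gene nfkbib (ENSDARG00000030087, chromosome 5, 36431885 to 36437930, plus strand) encodes I-κB beta, which in mammals is degraded and resynthesised more slowly than the alpha form. Its level ran from 51.6 through a median of 92.3 to 179 CPM after lesion and from 12.9 through a median of 80.3 to 200.5 CPM in sham, and the groups overlapped throughout. The log2 fold change was 0.06 ± 0.35, and with the size factors of DESeq2 it was -0.01. As with nfkbiab, the order of the groups turned with the row letter, at 82.9 ± 21 CPM after lesion and 127 ± 57.9 CPM in sham in row A, and 130 ± 48.3 CPM after lesion and 53.6 ± 34.1 CPM in sham in row B.

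NFKBIE (ENSDARG00000068367, chromosome 20, 51461165 to 51494683, minus strand) encodes I-κB epsilon, which in mammals is another inhibitor that NF-κB induces. It reached at least 3 counts in 10 of 10 lesion libraries and in 4 of 10 sham libraries. Its level ran from 0.379 through a median of 12.2 to 49.2 CPM after lesion and from 0 through a median of 0.214 to 20.5 CPM in sham. The groups overlapped, since sham replicates 2, 4 and 6 lay between 12.5 and 20.5 CPM, above lesion replicates 1, 3, 4, 8 and 10. The log2 fold change was 2.03 ± 1.24. Against a lesion mean of 19.5 CPM, the sham mean was 4.75 CPM with all libraries and 3.0 CPM without sham replicate 4. The lesion mean was 15.3 CPM without lesion replicates 2, 9 and 10. Lesion replicate 3, with the most nfkbiaa, had the least NFKBIE.

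TNFAIP3 (ENSDARG00000027777, chromosome 13, 1051036 to 1078837, plus strand) encodes A20, which removes ubiquitin chains that carry the signal to the I-κB kinase complex. It was close to the limit of detection. There were 12 lesion counts in all, all of them in lesion replicates 2, 9 and 10, of which only replicate 9 reached 3 counts (1.03 CPM). The sham group had 152 counts, almost all in replicate 4 (9.47 CPM) and replicate 10 (7.58 CPM). Both group medians were 0 CPM, and 7 of 10 libraries in each group had no count. The sham mean was 1.72 CPM with all libraries and 0.857 CPM without replicate 4.

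To compare the 4 I-κB genes with each other, counts were divided by the exon length in kilobases and scaled to a common total per library. The result is a length-scaled level. It assumes that reads come from the whole exon length, and the library kit, on which this depends, is not given. On that scale nfkbiab led with 604 ± 248 after lesion and 791 ± 127 in sham, a level above 98.9% of all genes with a count after lesion and 99.3% in sham. Next came nfkbib with 55.2 ± 20.7 after lesion and 58.5 ± 36.3 in sham. The length-scaled level of nfkbiaa was 21.6 ± 19.6 after lesion and 0 in sham, and that of NFKBIE was 20.0 ± 17.4 after lesion and 5.34 ± 8.71 in sham.

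The sham libraries, with no count of nfkbiaa, all held transcripts of nfkbiab and nfkbib. NFKBIE had a count in 6 of the 10 sham libraries and at least 3 counts in 4. Summed over the 4 genes, the length-scaled level was 701 ± 264 after lesion and 855 ± 144 in sham, and the ranges overlapped, from 472 to 1271 after lesion and from 650 to 1087 in sham. Of the 2 alpha genes together, nfkbiaa made up 3.45 ± 3.23% after lesion, from 0.733 to 10.8% over the libraries, and 0% in sham. The share of nfkbiab in all 4 was 85.3 ± 5.38% after lesion and 92.7 ± 3.96% in sham. Lesion replicate 3 had the highest nfkbiaa share of the alpha genes.

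**Figure D2:**
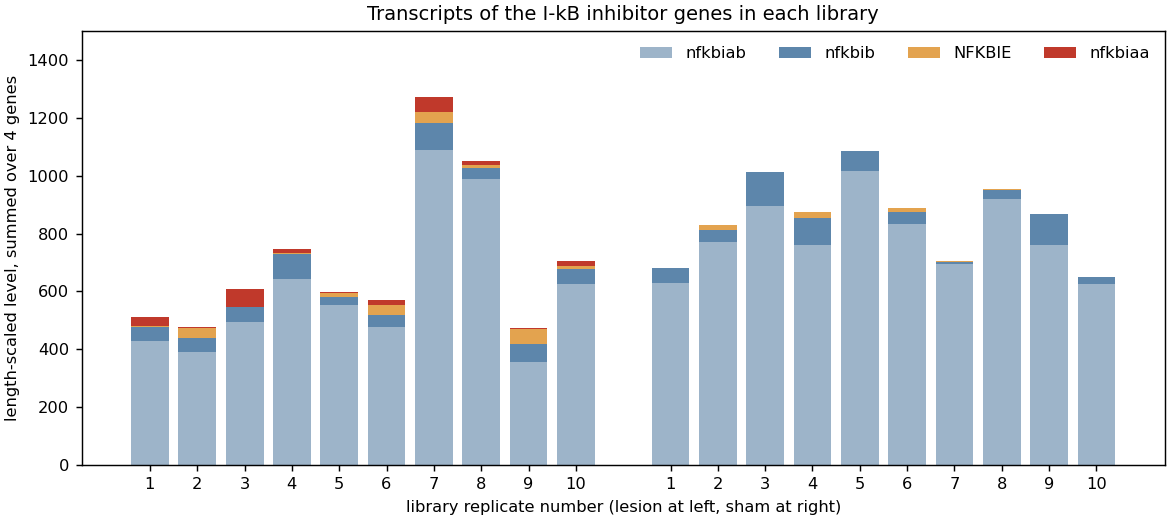
Length-scaled level (counts per kilobase of exon, scaled to a common total per library) of the 4 I-κB genes stacked for each library, with 10 lesion libraries at left and 10 sham libraries at right. The bars of nfkbiab make up most of every library (85.3 ± 5.38% after lesion and 92.7 ± 3.96% in sham), and nfkbiaa appears in the lesion libraries only, where it is 3.45 ± 3.23% of the 2 alpha genes.

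Among the subunits, nfkb2 and relb, which encode the partners of the slower branch, had the highest levels per length. nfkb2 (ENSDARG00000038687, chromosome 13, 22586916 to 22605097, plus strand) encodes p100, the precursor of p52, which also acts as an inhibitor before it is processed. Its level ran from 20.6 through a median of 61.3 to 169 CPM after lesion and from 0 through a median of 32.9 to 85.5 CPM in sham. It reached at least 3 counts in 10 of 10 lesion libraries and 8 of 10 sham libraries, and the groups overlapped. Lesion replicates 8 and 7 were the highest, with 169 and 161 CPM, and sham replicate 7 had no count. The log2 fold change was 1.22 ± 0.74. When lesion replicates 2, 9 and 10 were left out, the lesion median was 39.4 CPM and the lesion mean 75.4 CPM. With all lesion libraries the mean was 73.0 CPM. The group means were far apart in row A, at 83.2 ± 45.4 CPM after lesion and 21.9 ± 18.4 CPM in sham, and closer in row B, at 57.7 ± 69.1 CPM after lesion and 45.4 ± 36.1 CPM in sham.

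The gene relb (ENSDARG00000086173, chromosome 15, 17164390 to 17189195, plus strand) encodes the partner of p52. It was found in all 20 libraries, from 48.5 through a median of 77.4 to 164 CPM after lesion and from 19 through a median of 55.6 to 137 CPM in sham. The groups overlapped, and the sham libraries reached from below every lesion library to above all lesion libraries except replicate 7. The log2 fold change was 0.39 ± 0.37. In row A the means were 80.6 ± 21.2 CPM after lesion and 80.9 ± 55.6 CPM in sham, and in row B they were 103 ± 49.9 CPM after lesion and 49.6 ± 29.1 CPM in sham.

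REL (ENSDARG00000055276, chromosome 13, 25665061 to 25689375, minus strand) encodes c-Rel, a subunit with a transactivation domain known mostly from lymphoid and myeloid cells. It had 932 counts over the lesion group and 1 count over the sham group, in sham replicate 6. The ratio of the summed counts, scaled for library size, was 937 with a 95% exact binomial interval of 168 to 37039, which covers counting error only. The level ran from 0 through a median of 6.74 to 60.0 CPM after lesion. Lesion replicates 3, 5 and 8 had no count, so that the groups overlapped at 0. Lesion replicate 7 held the highest value and replicate 1 the next (22.1 CPM). The lesion mean was 11.9 CPM with all libraries and 6.57 CPM without replicate 7. When replicates 2, 9 and 10 were left out, the lesion median was 3.87 CPM and 4 of 7 lesion libraries reached 3 counts.

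RELA (ENSDARG00000098696, chromosome 7, 626603 to 667906, minus strand) encodes p65, the main transactivating subunit of the fast branch. Its level ran from 0 through a median of 1.6 to 11.6 CPM after lesion and from 0 through a median of 0.249 to 29.9 CPM in sham. It reached at least 3 counts in 6 of 10 lesion libraries and 4 of 10 sham libraries. In sham 4 libraries, replicates 4, 6, 7 and 8, lay between 10.8 and 29.9 CPM. The other 6 libraries had at most 0.255 CPM, 3 of them with no count. The lesion sum was 310 counts and the sham sum 729 counts.

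The gene nfkb1 (ENSDARG00000105261, chromosome 14, 50609994 to 50657925, minus strand) encodes the precursor of p50, the usual partner of p65. It had 59 lesion counts, with at least 3 in 5 of 10 libraries and at most 2.46 CPM, and 3 sham counts, with no library at 3. The ratio of the summed counts was 19.8, with an exact binomial interval of 6.44 to 98.6. It rests on few sham counts: beside a lesion mean of 0.721 CPM, the sham mean was 0.0304 CPM with all libraries and 0.0123 CPM without sham replicate 4, which held 2 of the 3 counts.

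Per length, the order of the subunits after lesion was relb (34.5 ± 12.6), nfkb2 (31.5 ± 23.6), REL (9.76 ± 14.6), RELA (0.845 ± 0.973) and nfkb1 (0.658 ± 0.857). In sham it was relb (29.6 ± 20.9), nfkb2 (14.7 ± 12.8), RELA (2.17 ± 3.0), nfkb1 (0.0306 ± 0.0671) and REL (0.0101 ± 0.0321). Neighbours in these orders had overlapping ranges of mean ± SD in both groups. The orders, shares and ratios rest on the assumption that reads come from the whole exon length, which was not tested. Over the 10 genes, the only neighbours whose ranges of mean ± SD did not overlap were nfkbiab and nfkbib, in both groups. Transcripts of nfkb2 and relb made up 87.6 ± 8.14% of the length-scaled subunit sum after lesion and 95.2 ± 6.94% in sham, and REL made up 10.1 ± 9.18% after lesion and 0.0362 ± 0.114% in sham. The subunit sum itself was 77.4 ± 41.1 after lesion and 46.4 ± 22.5 in sham. The ratio of the I-κB sum to the subunit sum was 10.3 ± 4.30 after lesion and 24.5 ± 17 in sham, with overlapping ranges of 4.95 to 19.5 after lesion and 10.6 to 59.8 in sham.

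Of the 10 genes, 6 passed the filter on low counts and entered the edgeR fit, and nfkbiaa passed it through its lesion libraries alone. The call of nfkbiaa as higher was fixed by the choice of the genes, and the other 5 were not called, where 4.34% of all 10467 genes tested were called higher and 3.24% lower. Its groups did not overlap, which held with lesion above sham for 1.45% of the genes tested. A pattern of at most 3 counts over the sham group and at least 3 counts in 7 or more lesion libraries was found for nfkbiaa and REL, and for 0.792% of the 23989 genes with a count. The choice of the genes used this contrast, and nothing is read from these shares.

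The number of the 10 genes found in a library went with the group. At least 3 counts were reached by 7 to 9 of them in lesion libraries, on average 7.9, and by 4 to 7 in sham libraries, on average 4.8, a ratio of 1.65. Without nfkbiaa, whose difference was known when the genes were chosen, 69 of 90 pairs of a gene and a lesion library and 48 of 90 pairs with a sham library reached 3 counts, a ratio of 1.44. All genes together were also found more often after lesion, with an average of 13016 genes at 3 counts in lesion libraries and 10080 in sham libraries, a ratio of 1.29. What part of the count of these 10 genes goes with that wider detection was not tested. In sorted bulk material a change in the share of cells with a transcript and a change in transcript per cell cannot be told apart.

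**Figure D3:**
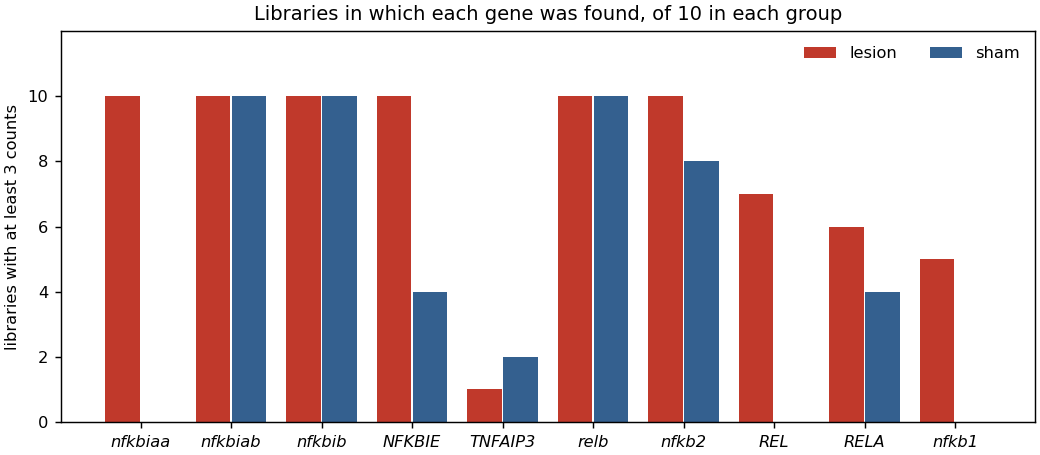
Number of libraries (vertical axis, of 10 in each group) in which each gene reached at least 3 counts, with lesion left of sham. NFKBIE, nfkb2, REL, RELA, nfkb1 and nfkbiaa reached 3 counts in more lesion than sham libraries, nfkbiab, nfkbib and relb in all 10 of both, and TNFAIP3 in 1 lesion library and 2 sham libraries.

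The same lesion library tended to hold the highest values. Lesion replicate 7 was the highest for nfkbiab, nfkbib, relb and REL and the next to highest for nfkbiaa, NFKBIE and nfkb2. It had 0.137 CPM of RELA and no count of nfkb1 or TNFAIP3.

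The 5 genes with a profile most like that of nfkbiaa were leng9, ITGB6, TOP3B, CXCL14 and GLOD5. Likeness was the mean absolute difference of centred log2(CPM + 1) over the 20 libraries, compared over 9311 tested genes, and it was 0.63, 0.66, 0.73, 0.77 and 0.84 for these genes in that order. CXCL14, a chemokine gene, stood at 36.7 ± 26.8 CPM after lesion, had no count in sham, and was at least 100.4-fold higher against the same limit of detection. ITGB6, an integrin beta subunit gene, stood at 21.4 ± 16.8 CPM after lesion and had 1 count in sham. leng9 averaged 13.8 ± 9.43 CPM after lesion and 1.00 ± 2.06 CPM in sham. TOP3B, a topoisomerase gene, stood at 17.6 ± 18.2 CPM after lesion and 0.734 ± 2.32 CPM in sham, where 1 library held all of its counts. GLOD5 averaged 11.2 ± 5.62 CPM after lesion and 0.372 ± 1.18 CPM in sham. The measure takes in the lesion against sham difference, so genes with a like difference come close to nfkbiaa by it.

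The rest of the pathway was described through 5 lists with 218 genes in all, of which 198 had a count and 111 were tested. Of these 111, 8 (7.21%) were called higher and 4 (3.60%) lower after lesion, beside 4.34% and 3.24% of all genes tested. The median log2 fold change was 0.17 for the 111 genes and 0.03 over all genes tested. Of the 12 called genes, 7 were on the list of NF-κB target genes. JUNB, GADD45B, ATF3 and b2m respond to many other stimuli too, and calls of several of these genes were known when the lists were made.

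Most ligand genes did not pass the filter on low counts. Of 16 ligand genes matched, 14 had a count and 3 were tested, and 1 was called lower. That gene was hmgb1a, which encodes a chromatin protein that acts as a danger signal once outside the cell. It fell in lesion libraries, with 641 ± 60.8 CPM after lesion and 1067 ± 155 CPM in sham (log2 fold change -0.73 ± 0.09, edgeR adjusted p = 4.95e-06), and all 10 lesion libraries lay below all 10 sham libraries. Over all 10467 genes tested, 58 had every sham library above every lesion library. The median of the 3 tested ligand genes was -0.73, which is the value of TNFSF10 (-0.73 ± 1.19, edgeR adjusted p = 0.934). The paralog hmgb1b stood at 369 ± 56.9 CPM after lesion and 367 ± 103 CPM in sham (log2 fold change 0.01 ± 0.15, edgeR adjusted p = 0.994). TNFSF10 and hmgb1b are named here to give all 3 tested genes.

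Receptors and adaptors gave no call among 21 tested of 58 matched genes, with a median log2 fold change of 0.19. The nearest to the threshold were ube2na and ube2nb, which encode the ubiquitin-conjugating enzyme Ubc13 that builds signalling chains. ube2na stood at 204 ± 55.7 CPM after lesion and 125 ± 60.4 CPM in sham (log2 fold change 0.71, edgeR adjusted p = 0.0727). It passed the threshold with row letter as a term (edgeR adjusted p = 0.046), with limma-voom (adjusted p = 0.0219), and without sham replicate 1 (edgeR adjusted p = 0.00893) or 2 (edgeR adjusted p = 0.0447). ube2nb stood at 98.1 ± 12.5 CPM after lesion and 61.5 ± 27.9 CPM in sham (log2 fold change 0.67, edgeR adjusted p = 0.142), and passed with limma-voom (adjusted p = 0.0307). With limma-voom the log2 fold change was 0.75 for ube2na and 0.80 for ube2nb, beside a median of 0.70 over all genes tested. The receptor gene tnfrsf1a, named after its values were seen, had 74.2 ± 30.6 CPM with at least 3 counts in 10 lesion libraries and 15.9 ± 21 CPM in 5 sham libraries (log2 fold change 2.22 ± 1.04, edgeR adjusted p = 0.294).

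Of the kinases and processing factors, 20 of 27 were tested, 1 was called higher and none lower, and the median was 0.21. The called gene was ube2d1b, an E2 enzyme gene of the family that serves the I-κB ubiquitin ligase. It rose to 104 ± 27.0 CPM after lesion, against 57.3 ± 23.3 CPM in sham (log2 fold change 0.86 ± 0.25, edgeR adjusted p = 0.0342), with 10 of 10 lesion libraries above the sham median. The call was lost in 13 of 20 fits that left out 1 library, those without lesion replicate 1, 2, 3, 5, 8, 9 or 10 or sham replicate 3, 5, 6, 7, 9 or 10, with adjusted p from 0.0508 to 0.0811. The core kinase genes, named after their values were seen, gave no call. CHUK stood at 73.4 ± 32.8 CPM after lesion and 103 ± 78.8 CPM in sham, and ikbkg, the gene of the regulatory subunit NEMO, stood at 48.0 ± 19.7 CPM after lesion and 28.0 ± 16.2 CPM in sham. map3k14a, the NIK gene upstream of nfkb2, stood at 58.9 ± 29.7 CPM after lesion and 37.2 ± 23.2 CPM in sham (log2 fold change 0.66 ± 0.43).

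The list of further inhibitors is mixed and also holds regulators that are not inhibitors alone, such as NFKBIZ, bcl3, PELI1 and USP7. NKAPL entered it by a synonym and may be another gene. Calls on this list were in the downward direction only, and nothing is read from them about inhibition. Of 39 genes 30 were tested, none was called higher and 3 (10%) were called lower, and the median was -0.18. Of all genes tested, 4.34% were called higher and 3.24% lower. All 3 encode deubiquitinases. Other deubiquitinase genes of the list, a second ZRANB1 gene, OTUD7A, otulinb, usp4 and USP7, were not among the called genes. CYLD, which removes the same kind of signalling chains as A20, fell to 223 ± 66.1 CPM after lesion, against 441 ± 132 CPM in sham (log2 fold change -0.98 ± 0.21, edgeR adjusted p = 0.00276), with 10 of 10 lesion libraries below the sham median. ZRANB1 (ENSDARG00000060257) fell to 15.8 ± 10.8 CPM after lesion, against 48.1 ± 22.1 CPM in sham (log2 fold change -1.60 ± 0.44, edgeR adjusted p = 0.0231), a call lost without sham replicate 10 (adjusted p = 0.0548). OTUD7B, the gene of Cezanne, fell to 2.66 ± 2.39 CPM after lesion, against 24.2 ± 24.5 CPM in sham (log2 fold change -3.18 ± 0.89, edgeR adjusted p = 0.026), a call lost with limma-voom (adjusted p = 0.0909) and in row A alone (edgeR adjusted p = 0.111). Of the I-κB related gene bcl3, which was not tested and is named after its values were seen, 8 of 10 lesion libraries had at least 3 counts, with 7.71 ± 10.8 CPM, and no sham library had a count, so that it was at least 21.1-fold higher. Lesion replicate 7 held the highest bcl3 level (36.4 CPM), and without it the lesion mean was 4.53 CPM and the bound 12.4-fold.

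On the list of NF-κB target genes, 37 of 84 were tested, 7 were called higher (18.9%) and none lower, and the median was 0.86. Among all genes tested, 4.34% were called higher and 3.24% lower, and 1.45% had every lesion library above every sham library. Calls of several of these target genes were known when the list was made, so nothing is read from its share. GADD45B (ENSDARG00000013576), a stress response gene, rose to 720 ± 209 CPM after lesion, against 171 ± 82.0 CPM in sham (log2 fold change 2.08 ± 0.24, edgeR adjusted p = 1.4e-06), and the groups did not overlap. Its paralog of the same symbol (ENSDARG00000027744) rose to 2058 ± 381 CPM after lesion, against 1130 ± 234 CPM in sham (log2 fold change 0.86 ± 0.13, edgeR adjusted p = 5.04e-05), with 10 of 10 lesion libraries above the sham median. b2m, the light chain gene of class I histocompatibility molecules, rose to 543 ± 153 CPM after lesion, against 150 ± 77.7 CPM in sham (log2 fold change 1.86 ± 0.31, edgeR adjusted p = 0.000204), and the groups did not overlap.

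The other called targets encode transcription factors of the early response. JUNB (ENSDARG00000104773) rose to 1224 ± 318 CPM after lesion, against 363 ± 166 CPM in sham (log2 fold change 1.75 ± 0.23, edgeR adjusted p = 7.05e-06), with no overlap between the groups. A second JUNB gene (ENSDARG00000074378) rose to 658 ± 350 CPM after lesion, against 280 ± 190 CPM in sham (log2 fold change 1.23 ± 0.34, edgeR adjusted p = 0.0242), with 9 of 10 lesion libraries above the sham median. The adjusted p was 0.0514 when lesion replicate 1 was left out and 0.0573 when lesion replicate 7 was left out, which ends the call. ATF3 rose to 1614 ± 568 CPM after lesion, against 589 ± 552 CPM in sham (log2 fold change 1.45 ± 0.41, edgeR adjusted p = 0.0269), with 10 of 10 lesion libraries above the sham median. Its call was lost without lesion replicate 5, 7 or 9 or sham replicate 4, 5 or 6 (adjusted p from 0.051 to 0.0529). MYC (ENSDARG00000007241), named outside the rule for named genes, was the seventh, at 136 ± 73.6 CPM after lesion and 61.9 ± 40.9 CPM in sham (edgeR adjusted p = 0.0357, log2 fold change 1.14 ± 0.33). It lost its call in 11 of 20 fits, those without lesion replicate 1, 4, 6 or 7 or sham replicate 1, 2, 4, 6, 7, 9 or 10 (adjusted p from 0.0506 to 0.102).

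**Figure D4:**
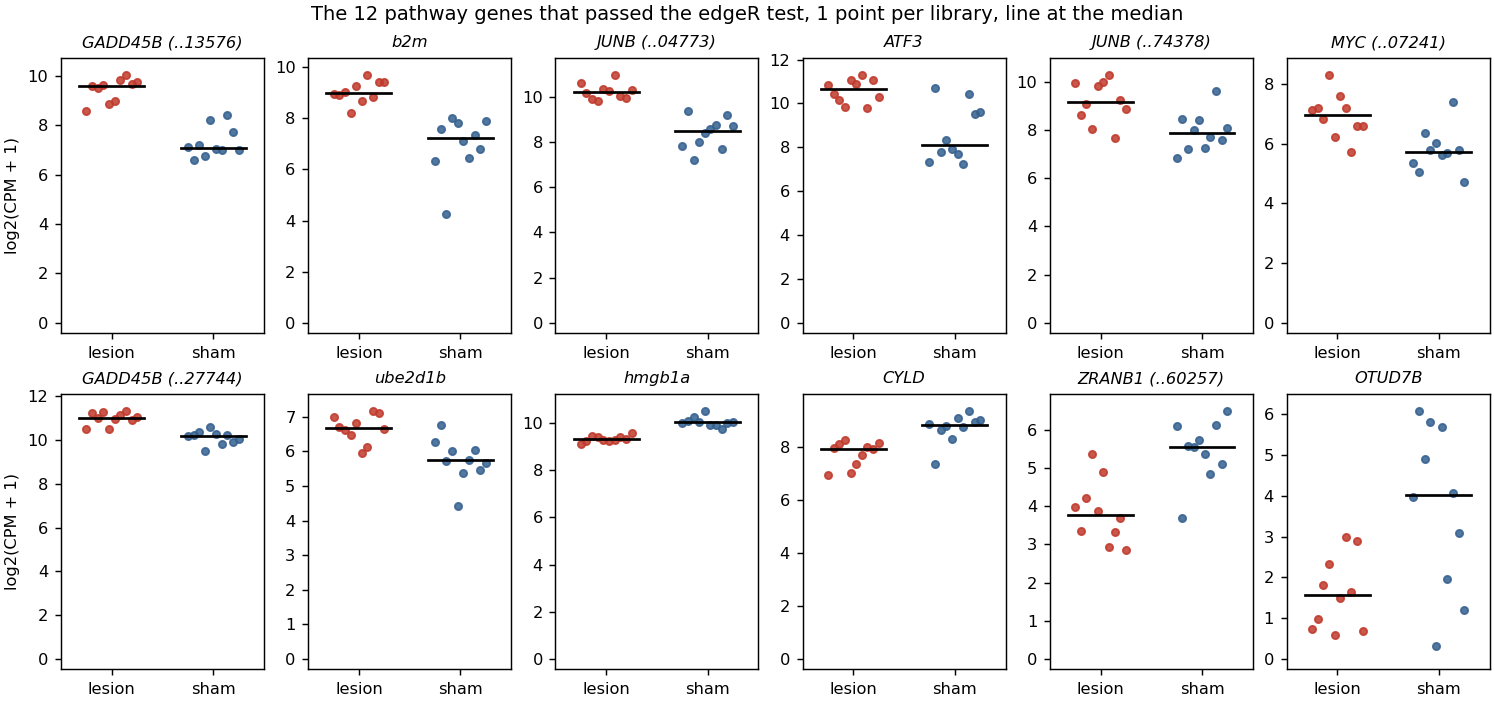
Levels of the 12 called pathway genes outside the subunits and inhibitors, as log2(CPM + 1) on the vertical axis, with 10 lesion libraries at left and 10 sham libraries at right of each panel, points for libraries and lines for medians. Digits in brackets end the gene identifier, and vertical ranges differ between panels; the groups do not overlap for the upper GADD45B gene, b2m, the first JUNB gene and hmgb1a.

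In a fit that adds each library's number of detected genes, a quantity that separates lesion from sham, only the 2 GADD45B genes of these 12 kept their call. In row A alone, with 6 libraries in each group, 9 of the 12 kept it, and OTUD7B, the JUNB gene ENSDARG00000074378 and MYC lost it. With row letter as a term MYC alone lost it (edgeR adjusted p = 0.0565). In row B alone, with 4 libraries in each group, 4 of the 12 kept it, namely hmgb1a, both GADD45B genes and MYC. Without lesion replicates 2, 9 and 10 the call was lost for ube2d1b (adjusted p = 0.189), ZRANB1 (0.159), OTUD7B (0.106), ATF3 (0.0884) and MYC (0.0641).

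Pathway genes with a count that did not pass the filter on low counts were also found more often after lesion. Of 87 such genes, 21 (24.1%) had no sham count and at least 3 counts in some lesion library, and 4 (4.60%) had the mirror image. Over all 13522 untested genes with a count these shares were 14.9% and 3.70%. The lists were chosen with earlier results of these data known, so the shares are a description, and their differences were not tested. Examples, named after their values were seen, were the cytokine gene tnfb, with at least 3 counts in 3 lesion libraries and up to 99.1 CPM, the neutrophil-attracting chemokine gene cxcl8a, with 4 libraries and up to 104 CPM, and TNFAIP6, a hyaluronan-binding protein gene, with 6 libraries and up to 28.4 CPM. None of these 3 genes had a count in sham. The interleukin gene il1b, which is not among the 21, had 4 counts after lesion and 7 in sham.

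**Figure D5:**
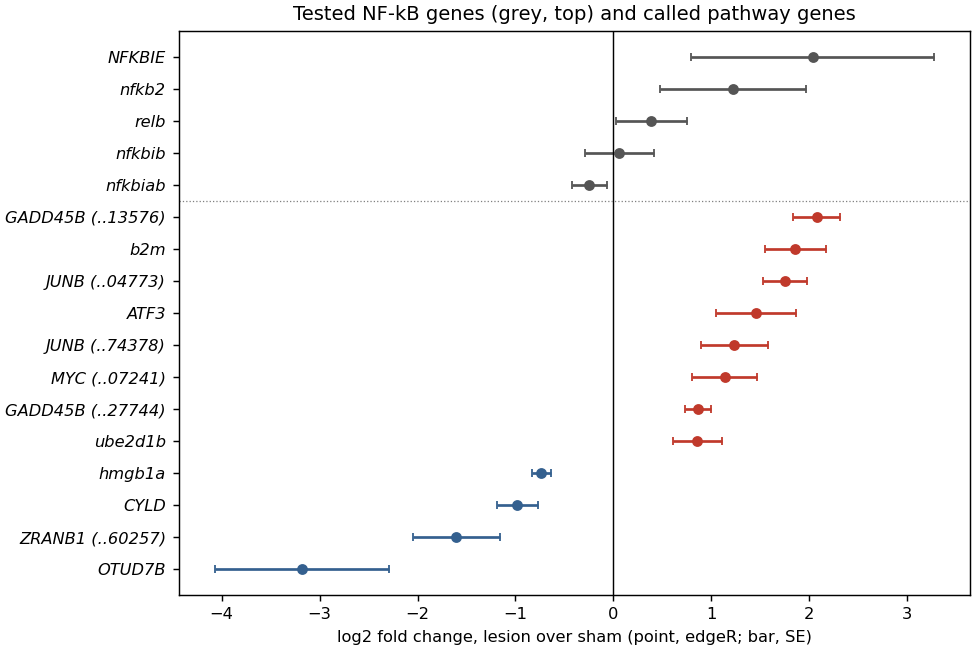
Log2 fold change of lesion over sham (horizontal axis, points with SE bars, edgeR) for 5 tested subunit and inhibitor genes in grey above the dotted line and for the 12 called pathway genes below it. nfkbiaa is left out because its fitted value rests on 0 sham counts and ran from 7.64 to 12.4 over other settings of the fit. NFKBIE (2.03 ± 1.24) and nfkb2 (1.22 ± 0.74) have the widest bars of the 5, and the bar of nfkbib (0.06 ± 0.35) spans 0. The bars are SEs and not confidence intervals, so a bar clear of 0 does not mark a difference. None of the 5 genes was called.

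Markers of other cells were looked at because NF-κB genes are active in immune cells. The summed level of the 31 microglia and macrophage markers was 5353 to 9668 CPM in the lesion libraries and 341 to 1513 CPM in the sham libraries, without overlap. Nearly all of it was apoeb, an apolipoprotein E gene, at 7393 ± 1495 CPM after lesion and 691 ± 341 CPM in sham. Of 5 tested markers 2 were called higher and none lower, apoeb (log2 fold change 3.42, edgeR adjusted p = 6.53e-10) and AIF1L, with 145 ± 51.8 CPM after lesion and 55.6 ± 37.4 CPM in sham (log2 fold change 1.39, edgeR adjusted p = 0.0122). The antigen presentation gene cd74b, named like cd74a and havcr1 after its values were seen, averaged 46.6 ± 90.0 CPM after lesion and 17.1 ± 26.1 CPM in sham and was not called (edgeR adjusted p = 0.779). cd74a reached 3 counts in 4 lesion libraries and 1 sham library, and havcr1 had 133 counts in the lesion group and 0 in the sham group. Of these markers, 9 were at 0 in the lesion group and 14 in the sham group. The defining genes marco, LCP1, c1qa and c1qb had no count in either group. MPEG1 (ENSDARG00000043093) had 1 count after lesion and 120 in sham, where only 1 library reached 3 counts. ptprc had 21 counts after lesion and 276 in sham, with 3 counts reached in 1 lesion library and 3 sham libraries. csf1ra had 10 counts after lesion, with 3 counts reached in 1 library, and 0 in sham.

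Of the 7 neutrophil markers, lyz had no count in either group, and MMP9, which is also on the list of NF-κB targets, was the highest at 40.1 ± 80.9 CPM after lesion and 0.0798 ± 0.252 CPM in sham. The neutrophil sum was 0 to 234 CPM after lesion and 0 to 4.39 CPM in sham, and the lymphocyte sum, led by nkl.2, was 0 to 4.71 CPM after lesion and 0.110 to 5.86 CPM in sham. The sum of the neuron markers, led by ELAVL3, was 388 to 1364 CPM after lesion and 358 to 1060 CPM in sham. Of these 25 markers, 2 were at 0 in the lesion group and 9 in the sham group, and none of 9 tested was called. ISL1, named like nefmb after its values were seen, had 2523 counts after lesion, with at least 3 in 6 libraries, and 0 in sham. For nefmb there were 58 counts after lesion and 267 in sham. The sum of the astroglia markers, led by the glutamine synthetase genes, was 4464 to 8831 CPM after lesion and 7030 to 11283 CPM in sham. Of 10 tested astroglia markers 2 were called higher, GFAP (log2 fold change 3.68, edgeR adjusted p = 0.0296) and S100B (log2 fold change 1.18, edgeR adjusted p = 0.00629), and 3 lower, SLC1A3 and both GLUL genes. GFAP averaged 209 ± 242 CPM after lesion and 16.3 ± 13.3 CPM in sham, and her4.1, which was not tested, 68.3 ± 81.2 CPM after lesion and 0.110 ± 0.346 CPM in sham. The oligodendrocyte lineage markers, led by cd59a, summed to 74549 to 163147 CPM after lesion and 104670 to 174453 CPM in sham, with all 16 genes counted in both groups. The endothelial markers, led by CLDN5, summed to 3.35 to 103 CPM after lesion and 0 to 26.8 CPM in sham, and the fibroblast and mural markers, led by acta2, to 49.5 to 295 CPM after lesion and 43.2 to 224 CPM in sham. The Schwann cell and neural crest markers, led by erbb3b, summed to 99.7 to 235 CPM after lesion and 71.5 to 419 CPM in sham. The erythroid markers, led by alas2, reached at most 14.7 CPM after lesion and 0.574 CPM in sham, and the epithelial markers, led by epcam, at most 22.6 CPM after lesion and 11.3 CPM in sham. Apart from the values given here, the part of any of these cells in the NF-κB gene levels was not tested.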

How the data were processed

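The deposited file is 1 table of read counts per gene for 20 libraries. Per the submitters' processing notes, the authors used bcl2fastq 2.19.1, GSNAP with zebrafish build GRCz10, and featureCounts 1.6.2. Per the file headers, counts used Ensembl release 87, a mapping quality of at least 1 and a strand setting of 0, so strand was ignored. The sources used here do not give the cells per library, the library kit or any molecular identifiers. The table has 32358 rows. The 92 spike-in rows, with 2 counts in all, were left out. Each column was matched to its sample by title. Exon lengths for the length-scaled level come from the deposited table.

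The 10 NF-κB genes, the 5 pathway lists and the cell type markers were chosen with earlier results of these data known. Lists were matched by symbol, by the symbol without its paralog letter or by a RefSeq synonym (assembly GRCz12tu). Lesion was compared with sham in edgeR 4.0.16 (R 4.3.3; filterByExpr, TMM, quasi-likelihood F test, two-sided) with the group as the only term and Benjamini-Hochberg adjustment over 10467 genes, with a threshold of 0.05. SEs were obtained from each log2 fold change and its F statistic, as the absolute value over the root of F. The script was tested on simulated data. In that run 2-fold, 4-fold and 16-fold differences were put into genes drawn from the table, and the low-count filter was then applied again. Of the genes with a 2-fold difference, 60 passed the filter and 8 were found. With a 4-fold difference, 21 were found among 56 that passed, and with a 16-fold difference, 39 among 54. Changed genes that the filter removed are not in these numbers, so recovery over all changed genes was lower. There were 69 calls, and 1 was false. A gene without a call here may therefore still differ between lesion and sham. The limit of detection was 3 counts in a library. Limits and the 95% exact binomial intervals cover counting error only. Named genes are the 10 genes, up to 6 called genes with the smallest p of each list or 2 where none was called, the 5 genes most like nfkbiaa, OLIG2 and the highest marker of each other cell type. Alternatives were DESeq2 1.42.0, limma-voom (limma 3.58.1), DESeq2 size factors, other low-count filters, row letter as a term or each row alone, detected genes as a covariate, and leaving out libraries.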

Additional observations from a re-analysis of the deposited data

Results flagged for a closer look

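Of 56 combinations of a gene and a group that were looked at, 6 were flagged because 1 library stood far from the other 9 by Dixon's criterion. The criterion is met by chance in about 1 of 20 only for normally distributed values. Several of these levels were skewed or 0, so the 6 are not read against that rate. Lesion replicate 7 had 60.0 CPM of REL, and the next lesion library 22.1 CPM. Lesion replicate 9 had 1.03 CPM of TNFAIP3, and the next 0.241 CPM, both near the limit of detection. Among the called pathway genes, sham replicate 8 had 770.0 CPM of the JUNB gene ENSDARG00000074378, the next sham library 348 CPM and the sham median 233 CPM. Among the genes most like nfkbiaa, ITGB6 reached 61.4 CPM in lesion replicate 3, which was also the highest library for nfkbiaa, and 32.6 CPM in the next. TOP3B had 7.34 CPM in sham replicate 4 and GLOD5 had 3.72 CPM in sham replicate 8, each with no count in the other 9 sham libraries. The 6 are not every such case. REL and ITGB6 had a single sham count each, with the other sham libraries at 0, and were not flagged in sham. MYC (ENSDARG00000007241), with 169 CPM in sham replicate 8 and 81.9 CPM in sham replicate 3, the next, is not among the 6 either.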

How the results depend on the processing

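No paired analysis was possible because the replicate numbers were given in accession order and the titles hold only well positions. With all libraries, 454 genes were called higher and 339 lower, among them 8 and 4 pathway genes. DESeq2 called 562 genes lower. With detected genes as a covariate there were 140 higher and 36 lower genes, with 2 and 1 pathway genes, and ube2nb turned to -0.19 on the log2 scale. A filter of 1 CPM in 5 libraries gave 865 higher genes and 17 higher pathway genes, and limma-voom gave 1380 and 21. The median log2 fold change over all genes tested was 0.70 with limma-voom and 0.03 in the main fit. With no filter 2780 genes were higher and 758 lower, with 35 and 8 pathway genes. Row A alone gave 201 lower genes. Row B alone gave 207 higher and 40 lower genes, with 5 and 1 pathway genes. Without lesion replicates 2, 9 and 10 there were 5 higher and 2 lower pathway genes. Leaving out 1 library gave 395 to 511 higher and 295 to 382 lower genes, and 5 to 11 higher and 4 to 5 lower pathway genes, the lowest of 5 without lesion replicate 1 or 7. The causes of these moves were not tested. With detected genes as a covariate the log2 fold changes of NFKBIE (-1.54), relb (-0.44) and nfkbiab (0.40) changed sign, and that of nfkb2 (0.90) did not. REL, RELA, nfkb1 and TNFAIP3 did not pass the filter on low counts, which asks for enough counts in enough libraries. REL had 932 lesion counts but reached 3 counts in only 7 lesion libraries.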
